A study of Mus musculus with 6 samples.

Results

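The genes described here encode some of the liver-made parts of the terminal and the lectin pathway of complement: Hc, C6, C8a, C8b, C8g, C9, Masp1, Masp2, Mbl1 and Mbl2. They were taken by gene symbol from a list drawn up with earlier results of these data known, and all 10 were among the 15953 genes of the deposited table. Liver RNA was sequenced from 6 C57BL/6 mice, 3 of wild type and 3 of Cgref1 knockout genotype, each described as a biological replicate. The labels name hepatocytes as the cell type, whereas the series design speaks of liver tissue, and they give neither age, sex, diet nor the position of the Cgref1 deletion. Nothing says how the replicates of a group were obtained. The p-values weigh a difference between the groups against the spread within groups among these 6 samples only.

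Complement is a cascade of plasma proteins, made mostly by hepatocytes, that marks and punctures microbes. In the lectin pathway, collectins such as mannose-binding lectin bind sugars on a surface and activate serine proteases, the MASPs, which cleave C4 and C2 to build a C3 convertase. In the terminal pathway, cleaved C5 binds C6 and C7, the complex takes up C8, and C9 then polymerises into the membrane attack complex, a pore in the target membrane.

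Library totals lay between 17627734 and 18366443 estimated counts. Cgref1 itself had 7, 7 and 19 counts in the wild type livers and 7, 12 and 10 counts in the libraries labelled as knockout, so its counts did not separate the groups and each genotype rests on the label alone; these libraries are called knockout-labelled below. With the low-count filter lifted, the log2 fold change of Cgref1 was -0.12 (SE 0.52, edgeR adjusted p 0.996). All 9 measured hepatocyte markers had counts in every library, and their summed level was 86647 to 116083 CPM in the wild type livers and 86565 to 111799 CPM in knockout-labelled libraries. Summed Kupffer cell markers (12 of 12 measured in every library) were at 317.1 to 349.3 CPM in the wild type livers and 397.4 to 428.2 CPM in knockout-labelled libraries. A group of 14 intestinal genes below the filter, which should be nearly silent in liver, gave 195, 15 and 365 counts for wild type replicates 1 to 3, whereas knockout-labelled replicates 1 to 3 had 0, 1 and 3. Fabp2, the only gene of the list of 15 above the filter, is left out of these sums. With it they were 2399, 1393 and 2480 counts in the wild type livers and 1259, 1401 and 1101 in knockout-labelled libraries.

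The largest differences among these genes were in C6, C8b and C8a, which were higher in all 3 knockout-labelled libraries than in any wild type library, by 1.7-fold, 1.55-fold and 1.32-fold. C9 and Hc, the gene for C5, were also without overlap between the groups in CPM, with smaller folds of 1.17 and 1.14. On the TPM scale, a level per transcript length, both genes overlapped between the groups, while C6, C8b and C8a stayed apart. Hc had 141.1 to 166.5 TPM in the wild type livers and 151.6 to 162.3 TPM in knockout-labelled libraries. For C9 these ranges were 271.7 to 347.8 TPM and 322.2 to 361 TPM. All genes shifted on that scale, with a median log2 fold change of -0.106 in a fit of log2(TPM + 1). Relative to that median Hc was at 0.16 and C9 at 0.2. C8g, Masp1, Masp2 and Mbl1 had overlapping groups and 95% intervals that held 0, and Mbl2 was at 0.8 of its wild type level with overlapping groups. No member passed the adjusted threshold of 0.05 by the quasi-likelihood test of edgeR, adjusted by Benjamini-Hochberg (0 of 10), where 0.00831% of the 12033 genes tested passed. At an unadjusted p under 0.05 the count was 3 of 10, all higher, against 5.15% of all genes tested in either direction and 2.95% in the higher direction; the count was 2 of 10, against 2.24% of all genes, without wild type replicates 1 and 3, the libraries with most intestinal counts. That fit keeps 1 wild type library, so its spread comes from the knockout-labelled libraries alone and the lone library is assumed to vary like them. In CPM the groups did not overlap for 5 of 10 members, again all higher, against 10.8% of all genes tested in either direction and 6.19% in the higher one. C9 and Hc, which overlapped in TPM, are among these 5. The median log2 fold change of the 10 members was 0.14, beside -0.002 over all genes tested, and it was 0.08 without wild type replicate 3. In the plot of CPM by group, the groups are apart for the terminal genes except C8g and overlap for the lectin pathway genes.

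**Figure D1:**
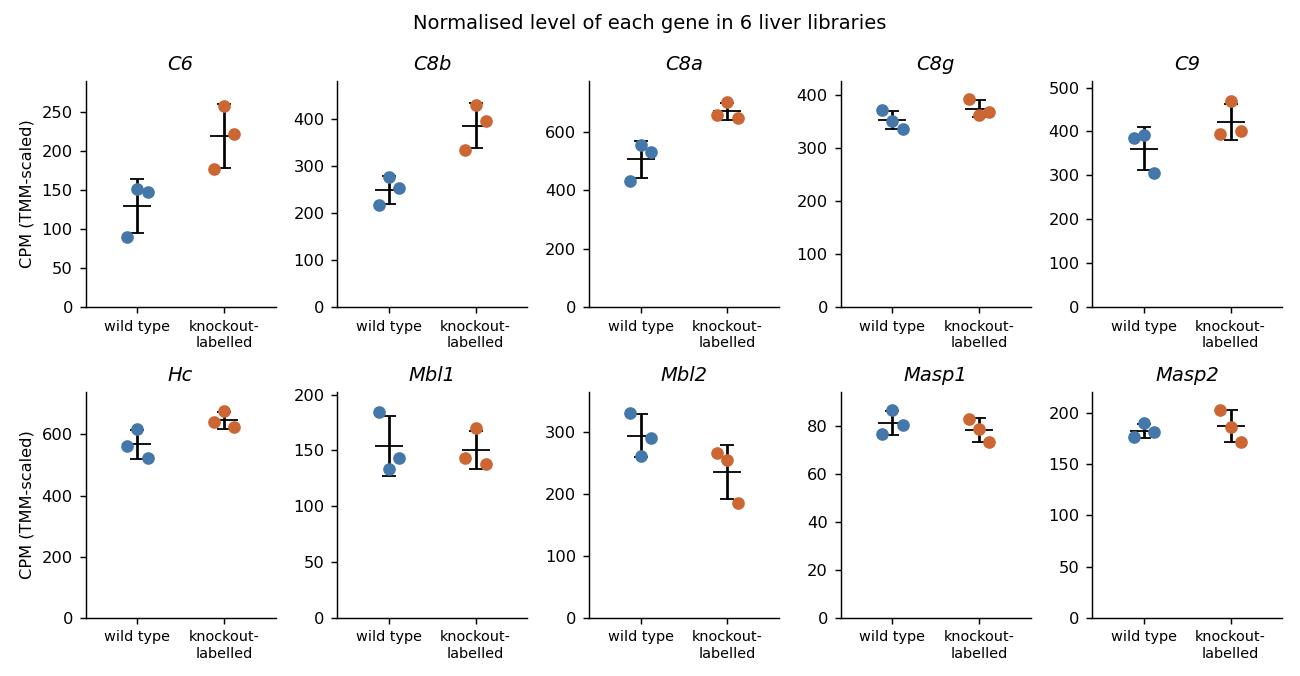
Normalised level (CPM, counts scaled by library size and TMM factor, linear axis from 0) of each gene in 3 wild type (blue) and 3 knockout-labelled (orange) libraries, ordered within a group as replicates 1 to 3; horizontal bars show the mean and whiskers the SD. C6 runs from 89.4 to 151.2 CPM in the wild type livers and from 177.4 to 258.8 CPM in knockout-labelled libraries, whereas the points of both groups overlap for Masp1 and Masp2.

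C6, which joins C5b as the first step of pore assembly, lies on chromosome 15 from 4538393 to 4834818 on the plus strand (GRCm38). Its levels were 89.4, 151.2 and 147.8 CPM in wild type replicates 1, 2 and 3 and 177.4, 258.8 and 222.2 CPM in knockout-labelled replicates 1, 2 and 3. Wild type replicate 1 stood lowest, knockout-labelled replicate 2 stood highest, and the groups did not overlap. The means were 129.5 ± 34.8 and 219.5 ± 40.8 CPM (SD, n = 3), a log2 fold change of 0.76 (SE 0.22, 95% interval 0.24 to 1.28) with an edgeR adjusted p of 0.856. The log2 fold change of C6 was 0.55 without wild type replicate 1 and 0.53 without wild type replicates 1 and 3. C6 was also the most variable member: its pooled SD within groups was 0.36 on the log2 scale, above that of 82.7% of the genes tested. The gene model of C6 in the table begins 188.8 kb upstream of the GENCODE start of C6 on the same build and overlaps Plcxd3, which had at most 1 count in any library.

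C8 is built from 3 chains, alpha, beta and gamma, from the genes C8a, C8b and C8g. C8b (chromosome 4, 104766317 to 104804548, plus strand) stood at 217.7, 276.5 and 253.1 CPM in the wild type livers and at 334.4, 429.4 and 396.4 CPM in knockout-labelled replicates 1, 2 and 3. Every knockout-labelled library was above every wild type library. The means were 249.1 ± 29.6 and 386.7 ± 48.2 CPM (SD, n = 3), and the log2 fold change of 0.63 (SE 0.13, 95% interval 0.35 to 0.92) had an unadjusted p of 0.000631 and an adjusted p of 0.608 in edgeR, the 12th smallest p of all genes tested. The log2 fold change of C8b was 0.54 without wild type replicate 1 and 0.47 without wild type replicates 1 and 3. The call depended on the test, since DESeq2 on the same counts gave C8b an adjusted p of 0.00739, with 0.257% of the genes it adjusted past the threshold. In the authors' deposited table, C8b had a log2 fold change of 0.63 with a DESeq2 q-value of 0.0094, while C6 had a q-value of 0.0873 and C8a one of 0.308. C8b was the only one of the 10 members under 0.05 in that table, where 0.17% of 15917 genes were, and the only one in the DESeq2 fit made here.

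C8a (chromosome 4, 104815679 to 104876487, minus strand), the chain that inserts into the membrane, had 433.9, 555.2 and 531 CPM in the wild type livers and 659.3, 704.2 and 649.1 CPM in knockout-labelled replicates 1, 2 and 3. Here too the groups were apart, with wild type replicate 1 the lowest library. Its log2 fold change was 0.4 (SE 0.12, edgeR adjusted p 0.85), and 0.26 without wild type replicates 1 and 3. C8g (chromosome 2, 25498650 to 25501719, minus strand), which encodes the lipocalin-like gamma chain, had 372.1, 352.4 and 337.5 CPM in the wild type livers and 392.8, 362.9 and 368.4 CPM in knockout-labelled libraries. These groups overlapped, and the log2 fold change of C8g was 0.08 with a 95% interval from -0.13 to 0.29 (edgeR adjusted p 0.988). Its model overlaps that of Fbxw5 on the opposite strand, which had 639 to 729 counts.

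C8a and C8b are neighbours that end 11.1 kb apart on opposite strands. The table's models of 4 low-count genes, Zfp979, Zfp534, Gm13201 and Chchd2-ps, span at least 146.6 Mb of chromosome 4 and so run across both genes; they had at most 32 counts in any library and were left out as neighbours. C8a also overlaps the model of Fyb2, on the opposite strand, which had 45 to 84 counts. Of the other genes within 500 kb of this pair, 3 were tested and 0 passed in edgeR (0 also at an unadjusted p under 0.05), with log2 fold changes of -0.08 to 0.21. C6 and C9 share chromosome 15 but lie 1611 kb apart. Around C6, 5 genes were tested and had log2 fold changes of -0.3 to 0.03; around C9, 4 genes had -0.13 to 0.34, and none of these 9 passed at an unadjusted p under 0.05.

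The sequences just upstream of C6, C8b and C8a are shown because these 3 genes were highest in the same libraries, and that of C8g because it belongs to the same complex without that pattern. Each run is the 250 bases before the annotated start, 5′ to 3′ on the gene's own strand, from RefSeq on GRCm38.p6. The start is that of RefSeq, so the C6 window lies inside the longer model of the deposited table, as does part of the C8a window. The windows are chr15:4726960-4727209 (plus strand) for C6, chr4:104766067-104766316 (plus) for C8b, chr4:104876399-104876648 (minus) for C8a and chr2:25501720-25501969 (minus) for C8g.
C6: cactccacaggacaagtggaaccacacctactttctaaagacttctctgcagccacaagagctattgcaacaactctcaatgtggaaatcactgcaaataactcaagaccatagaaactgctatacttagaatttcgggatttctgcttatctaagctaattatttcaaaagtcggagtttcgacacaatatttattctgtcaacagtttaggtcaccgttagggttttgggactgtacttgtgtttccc
C8b: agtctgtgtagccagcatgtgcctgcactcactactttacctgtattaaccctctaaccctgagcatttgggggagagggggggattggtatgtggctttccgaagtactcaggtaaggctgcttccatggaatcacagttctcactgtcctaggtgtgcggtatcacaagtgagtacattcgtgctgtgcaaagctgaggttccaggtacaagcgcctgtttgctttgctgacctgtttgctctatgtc
C8a: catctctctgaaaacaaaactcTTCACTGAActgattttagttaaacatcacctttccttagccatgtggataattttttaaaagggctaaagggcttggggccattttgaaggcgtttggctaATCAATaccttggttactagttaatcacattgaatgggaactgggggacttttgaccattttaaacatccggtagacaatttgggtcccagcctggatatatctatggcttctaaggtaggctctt
C8g: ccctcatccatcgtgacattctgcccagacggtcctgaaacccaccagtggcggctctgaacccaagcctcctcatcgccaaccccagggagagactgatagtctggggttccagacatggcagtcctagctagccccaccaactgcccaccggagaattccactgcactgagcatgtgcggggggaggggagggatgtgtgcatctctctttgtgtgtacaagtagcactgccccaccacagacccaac
Capitals mark matches, on either strand, to 5 short motifs of liver transcription factors: TTCNNNGAA (STAT), TTGCNNAA (C/EBP), GTTAATNAT (HNF1), CAAAGTCCA (HNF4) and ATCAAT (HNF6), none of which overlapped another in these windows. Of the 4 windows only that of C8a held a match, to the STAT motif starting at -228 and to the HNF6 motif starting at -126, counted from the start site. Among all 32851 windows of this length in the table, 7.02% held the STAT motif and 6.72% the HNF6 motif. A window was found for 9 of the 10 members; beyond C8a, the HNF1 motif (0.737% of all windows) matched in that of Hc, the C/EBP motif (9.56%) in that of C9 and the STAT motif in that of Masp2. A match is a stretch of letters and not a measured binding site.

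The ratio of 2 genes within a library does not depend on how libraries are scaled, so 7 ratios of TPM (a level per transcript length) were compared by two-sided exact permutation tests, which with 3 against 3 libraries cannot go below 0.1. The ratio of C8b to C8g was 0.246, 0.332 and 0.316 in the wild type livers and 0.359, 0.497 and 0.455 in knockout-labelled replicates 1, 2 and 3. C8b transcripts were thus nearer to C8g transcripts in number in each knockout-labelled library, with a log2 difference of 0.55 (exact p 0.1, adjusted over the 7 ratios 0.233). The ratio of C8a to C8g was 0.297, 0.404 and 0.401 against 0.429, 0.494 and 0.453, also without overlap (log2 difference 0.33, exact p 0.1, adjusted 0.233), and the log2 difference was 0.18 without wild type replicate 1. C8a transcripts outnumbered those of C8b in every wild type library, with ratios of 1.2, 1.22 and 1.27, while knockout-labelled replicates 1 to 3 had 1.19, 0.993 and 0.994 (log2 difference -0.22, exact p 0.1, adjusted 0.233). The ratios of C9 and of Hc to C6 overlapped between the groups and had log2 differences of -0.55 and -0.59 (exact p 0.2 each, adjusted 0.233). Without wild type replicate 1 these 2 values were -0.26 and -0.35.

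**Figure D2:**
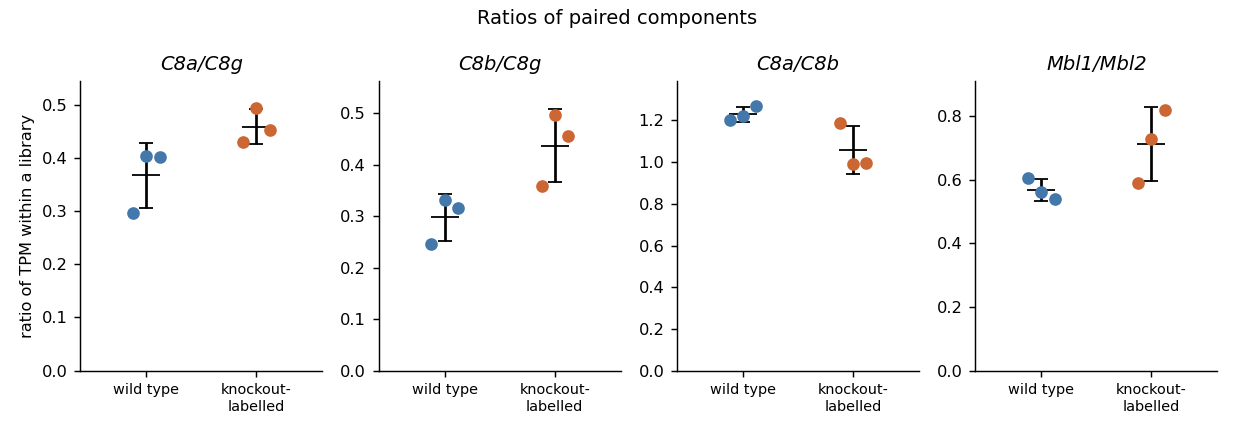
Ratio of TPM within each library (linear axis from 0) for the pairs of C8 chain genes and for Mbl1 over Mbl2; blue points are the 3 wild type and orange points the 3 knockout-labelled libraries, with the mean (bar) and SD (whisker). The C8b to C8g ratio lies at 0.246 to 0.332 in the wild type livers and at 0.359 to 0.497 in knockout-labelled libraries, while the Mbl1 to Mbl2 ratios overlap.

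Hc encodes C5, whose larger fragment starts pore assembly. It lies on chromosome 2 from 34983329 to 35067698, with a plus strand in the deposited table and a minus strand in the GENCODE annotation of the same build. Its levels were 563.5, 617.9 and 521.7 CPM in the wild type livers and 640.8, 677.2 and 623.1 CPM in knockout-labelled replicates 1, 2 and 3. The lowest knockout-labelled library was just above the highest wild type library, and the log2 fold change of 0.19 (SE 0.1) had a 95% interval of -0.04 to 0.42 and an edgeR adjusted p of 0.974. C9 (chromosome 15, 6445333 to 6498476), the pore-forming subunit, had 385.2, 391.9 and 304.6 CPM in the wild type livers and 393.8, 468.6 and 402.2 CPM in knockout-labelled libraries. The groups of C9 were apart by the narrow step from 391.9 to 393.8 CPM, and its log2 fold change was 0.23 (SE 0.13, 95% interval -0.06 to 0.51, edgeR adjusted p 0.974). Without wild type replicates 1 and 3 the log2 fold changes were 0.05 for Hc and 0.09 for C9, and without wild type replicate 3 that of C9 was 0.12.

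C7, the remaining terminal component, is not among the 10 members and was below the low-count filter, with 10, 10 and 12 counts in the wild type livers and 4, 5 and 3 counts in knockout-labelled libraries. Its groups did not overlap, in the direction opposite to C6. With the filter lifted its log2 fold change was -1.32 (SE 0.55, edgeR unadjusted p 0.0296, adjusted 0.936). Each of the 10 members had at least 1328 counts in every library.

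Among the recognition proteins of the lectin pathway, Mbl1 and Mbl2 encode the A and C forms of mouse mannose-binding lectin. Mbl2 (chromosome 19, 30232906 to 30239686) had 330.3, 261.4 and 289.6 CPM in the wild type livers and 265.7, 254.1 and 185.3 CPM in knockout-labelled replicates 1, 2 and 3. Knockout-labelled replicate 3 was the lowest and wild type replicate 1 the highest, and the groups overlapped between 261.4 and 265.7 CPM. The log2 fold change of Mbl2 was -0.32 (SE 0.15, 95% interval -0.65 to 0.01, edgeR adjusted p 0.964), and -0.18 without knockout-labelled replicate 3. Mbl1 (chromosome 14, 41151368 to 41159596) had 184.7, 133.7 and 143.6 CPM in the wild type livers and 143.1, 169.8 and 138.2 CPM in knockout-labelled libraries, which overlapped widely. Its log2 fold change was -0.03 (95% interval -0.34 to 0.27, edgeR adjusted p 0.994), and it was 0.11 without wild type replicate 1. The ratio of Mbl1 to Mbl2 transcripts was 0.539 to 0.606 in the wild type livers and 0.59, 0.728 and 0.82 in knockout-labelled replicates 1, 2 and 3 (log2 difference 0.31, exact p 0.2, adjusted 0.233).

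Masp1 and Masp2 encode the serine proteases that sit on these lectins. Masp1 (chromosome 16, 23451785 to 23521074), which also encodes MASP-3 by alternative splicing, had 76.4, 86.5 and 80.3 CPM in the wild type livers and 82.8, 78.6 and 73.1 CPM in knockout-labelled libraries. Masp2 (chromosome 4, 148594754 to 148615482), the protease that cleaves C4 and C2, had 176.2, 190 and 181 CPM in the wild type livers and 202.9, 186.7 and 172 CPM in knockout-labelled libraries. Both genes had overlapping groups, and their log2 fold changes were -0.05 (95% interval -0.26 to 0.16) and 0.04 (95% interval -0.18 to 0.25), with edgeR adjusted p of 0.99 and 0.992. Masp2 overlaps Tardbp in the table, and it alone among the members had fractional counts in every library, which leaves its reads partly shared. The ratio of Masp1 to Masp2 was between 0.152 and 0.17 in all 6 libraries (log2 difference 0.02, exact p 0.7, adjusted 0.7). The sign of this difference turned when counts replaced TPM. It was then -0.09 with an unadjusted exact permutation p of 0.1, the smallest that 3 against 3 libraries can give.

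Levels of different genes were compared on the TPM scale over all 6 libraries. C8g was the highest at 561 ± 32.5 TPM (SD, n = 6), ranking between 213 and 247 of all genes in the table, and Masp1 the lowest at 38.3 ± 3.66 TPM. Between them came Mbl2 (398.1 ± 86), C9 (327.4 ± 30.7), Mbl1 (248.6 ± 32.5), Masp2 (238.2 ± 24.3), C8a (230.3 ± 30.5), C8b (204.3 ± 42.5), Hc (154.4 ± 9.59) and C6 (87.6 ± 25.7 TPM). C8g was above every other member in every library, and C6 was below every member but Masp1. The neighbours from Mbl2 down to Hc had overlapping ranges, although C9 was above Mbl1 in all 6 libraries. The order of the other neighbours was not fixed. Mbl2 was above C9 in 4 of 6 libraries, Mbl1 above Masp2 in 3 and Masp2 above C8a in 3. C8a was above C8b in 4 and C8b above Hc in 5. C8g transcripts were thus above those of both other C8 chains in all 6 libraries.

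**Figure D3:**
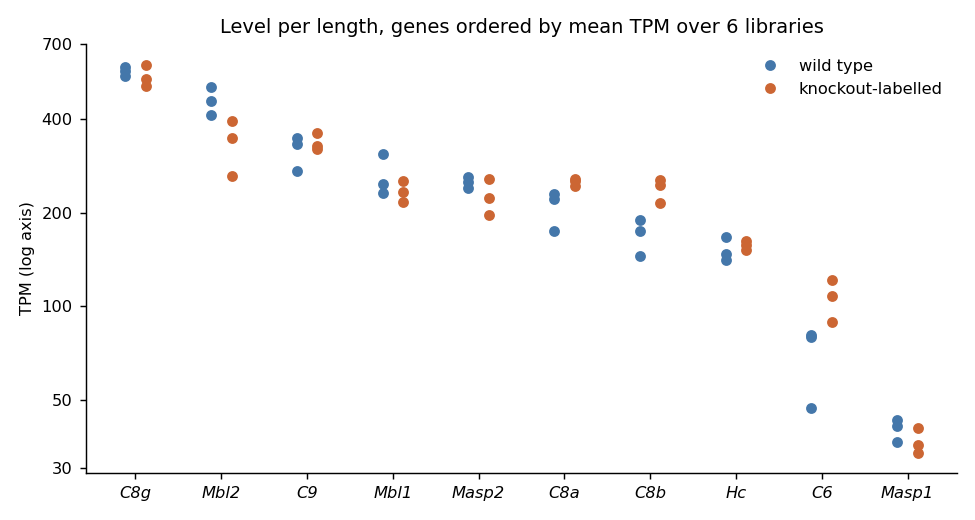
Level per transcript length (TPM, log axis) of the 10 genes, ordered by their mean over 6 libraries; blue points are wild type and orange points knockout-labelled libraries. C8g lies at 513.5 to 601.1 TPM and Masp1 at 33.5 to 42.9 TPM, with C6, C8a and C8b showing orange above blue.

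C8g and Masp2 had the opposite sign on the TPM scale, with log2 fold changes of -0.05 and -0.16 in a limma-trend fit of log2(TPM + 1). On that scale the median of all genes tested was itself at -0.106, and relative to it C8g was at 0.05 and Masp2 at -0.05. Relative to the median of all genes, C6 was at 0.74 to 0.78, C8b at 0.6 to 0.63 and C8a at 0.38 to 0.41 over the fits on TPM, FPKM and library totals. Over the same fits Hc was at 0.16 to 0.19 and C9 at 0.2 to 0.23.

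By rank among all genes tested, C6 and C8b were each near the other in their pattern over the libraries. Mbl1 and Mbl2 had no other member at a near rank. As a measure of likeness, log2 CPM was centred on each gene's own mean over the 6 libraries and the root mean square difference between 2 genes was taken, in log2 units. The gene most like C6 was Il1r1, the receptor gene for interleukin 1 (0.0619), and C8b was 15th of 12032 other genes (0.181), with C8a also within the nearest 1%. The gene most like C8b was Glul, for glutamine synthetase (0.0596), and C6 and C8a were again within the nearest 1% of C8b. The nearest member of C8b was C8a (0.144), which ranked 28th. The gene most like C8a was Slc16a10 (0.0352), and the nearest member of C8a, C8b, ranked 331st. For Hc the nearest gene was Nagk (0.0327), for C9 Scamp1 (0.0364), for Mbl2 Kdm4c (0.0491), for Mbl1 Zbtb33 (0.019), for Masp1 Pdzrn3 (0.0238) and for Masp2 Cox5b (0.021). Hc was within the nearest 1% of C9, and Masp1 and Masp2 were within the nearest 1% of each other. The nearest member of Mbl1 was C8g (0.169), which ranked 2228th, and that of Mbl2 was Mbl1 (0.212), which ranked 1722nd. As a distance, the 0.169 of Mbl1 was smaller than the 0.181 between C6 and C8b. A gene with no change over the libraries would lie 0.49 from C6 and 0.169 from Mbl1, so ranks and distances differ.

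C6 also stands in a list of genes expressed more in male than in female mouse liver. The 13 other genes of the male-biased list, which include Susd4, had mean centred log2 CPM values of -0.58, -0.07 and -0.36 in the wild type livers and -0.18, 0.65 and 0.53 in knockout-labelled replicates 1, 2 and 3. Those of C6 were -0.89, -0.13 and -0.16 and then 0.1, 0.65 and 0.43, so both were lowest in wild type replicate 1 and highest in knockout-labelled replicates 2 and 3. C8b had -0.5, -0.16 and -0.29 in the wild type livers and 0.11, 0.48 and 0.36 in knockout-labelled libraries. The 4 female-biased genes tested had 0.69, 0.26 and 0.44 in the wild type livers and 0.6, -0.85 and -1.13 in knockout-labelled libraries. Knockout-labelled replicate 1 lay with the wild type libraries in both lists but above all of them in C6, C8b and C8a. The Kupffer cell list had -0.24 to -0.11 in wild type and 0.13 to 0.2 in knockout-labelled libraries, and in bulk RNA more cells of a type and more RNA per cell cannot be told apart. The part of any of these genes in the values of C6, C8b and C8a was not tested.

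**Figure D4:**
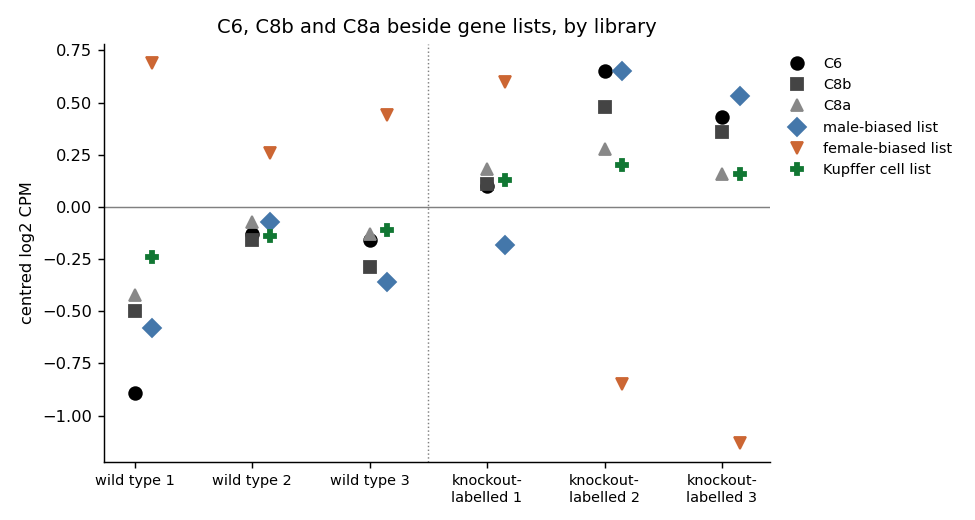
Centred log2 CPM (each gene's value minus its own mean over 6 libraries; lists show the mean of their tested genes) in wild type (left of the dotted line) and knockout-labelled libraries. C6, C8b and C8a lie below 0 in every wild type library and above 0 in every knockout-labelled library, while the male-biased list is at -0.18 in knockout-labelled replicate 1 and at 0.65 and 0.53 in the other 2.

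The rest of the complement system was read from the same fit with a list of 45 genes; the table held 43, and 36 passed the filter. In edgeR 0 of them passed, with 7 higher and 1 lower at an unadjusted p under 0.05, against 2.95% of all genes tested higher and 5.15% in either direction, and DESeq2 also called 0. Their median log2 fold change was 0.1, with 22 positive and 14 negative values, beside 5954 positive and 6079 negative values over all genes tested. In CPM the groups did not overlap for 9 higher and 2 lower genes, against 6.19% of all genes tested higher and 10.8% in either direction.

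In the classical pathway 7 of 8 tested genes had positive values (median 0.17), beside 5954 of all 12033 genes tested, and in edgeR 0 passed. C1qa, C1qb and C1qc are among these 7 and also stand in the Kupffer cell list, whose 12 genes all had positive values. C4b and C1s1, the most abundant of them, were at 794.8 ± 127.3 and 403.8 ± 24.9 CPM in the wild type livers and at 837.9 ± 26.5 and 399.1 ± 13.9 CPM in the knockout-labelled ones (SD, n = 3). C4b and C4a are close copies whose reads can be split between them. C2, the substrate of Masp2 and of C1s, was at 79.7 ± 9.62 and 111.2 ± 15.1 CPM (SD, n = 3), a log2 fold change of 0.48 (SE 0.13) with an edgeR adjusted p of 0.754. C1qb and C1qc, subunits of C1q that Kupffer cells express, had 0.28 (SE 0.1) and 0.26 (SE 0.11), while the remaining subunit gene C1qa had 0.13 (SE 0.15) with overlapping groups; these 3 genes and C2 were named after their values were seen. In the alternative pathway C3 and Cfb (factor B) had log2 fold changes of -0.05 (SE 0.14) and 0.05 (SE 0.1).

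The other recognition molecules of the lectin pathway had values of both signs. Colec12 and Colec10, a scavenger receptor and collectin liver 1, had log2 fold changes of 0.01 (SE 0.11) and -0.41 (SE 0.12, edgeR adjusted p 0.85), and Fcna, the ficolin of Kupffer cells, had 0.3 (SE 0.1). Colec10 was at 40.4 ± 5.88 CPM in the wild type livers and 30.5 ± 1.52 CPM in the knockout-labelled ones (SD, n = 3). Colec10 and Colec11 are also markers of stellate cells here. The summed level of the 12 stellate and matrix markers was 400.5 to 529.3 CPM in the wild type livers and 343 to 398.1 CPM in knockout-labelled libraries. This sum contains Colec10 and Colec11, so it is not a separate measure. The mean centred log2 CPM of the list overlapped between the groups. It was -0.07, -0.06 and 0.34 in the wild type livers and -0.09, -0.1 and -0.01 in knockout-labelled libraries.

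Regulators had 7 positive and 9 negative values among 16 tested genes (median -0.01), and 0 passed in edgeR. Vtn and Clu, whose products keep the forming C5b-9 complex out of membranes, were the most abundant, with log2 fold changes of 0.1 (SE 0.11) and 0.26 (SE 0.12). Cd59a, which blocks C9 insertion on the cell surface, had -0.01 (SE 0.11) and shares sequence with Cd59b. Susd4, a complement inhibitor that also stands in the male-biased list, was at 47.3 ± 8.41 and 66.2 ± 6.68 CPM (SD, n = 3; log2 fold change 0.49, SE 0.14, edgeR adjusted p 0.85). Of the receptors, Vsig4 and Itgb2 had the highest levels, with log2 fold changes of 0.15 (SE 0.11) and 0.34 (SE 0.21); 5 of 8 receptor genes were tested and 0 passed. Cd59a, Susd4 and Fcna were named after their values were seen.

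**Figure D5:**
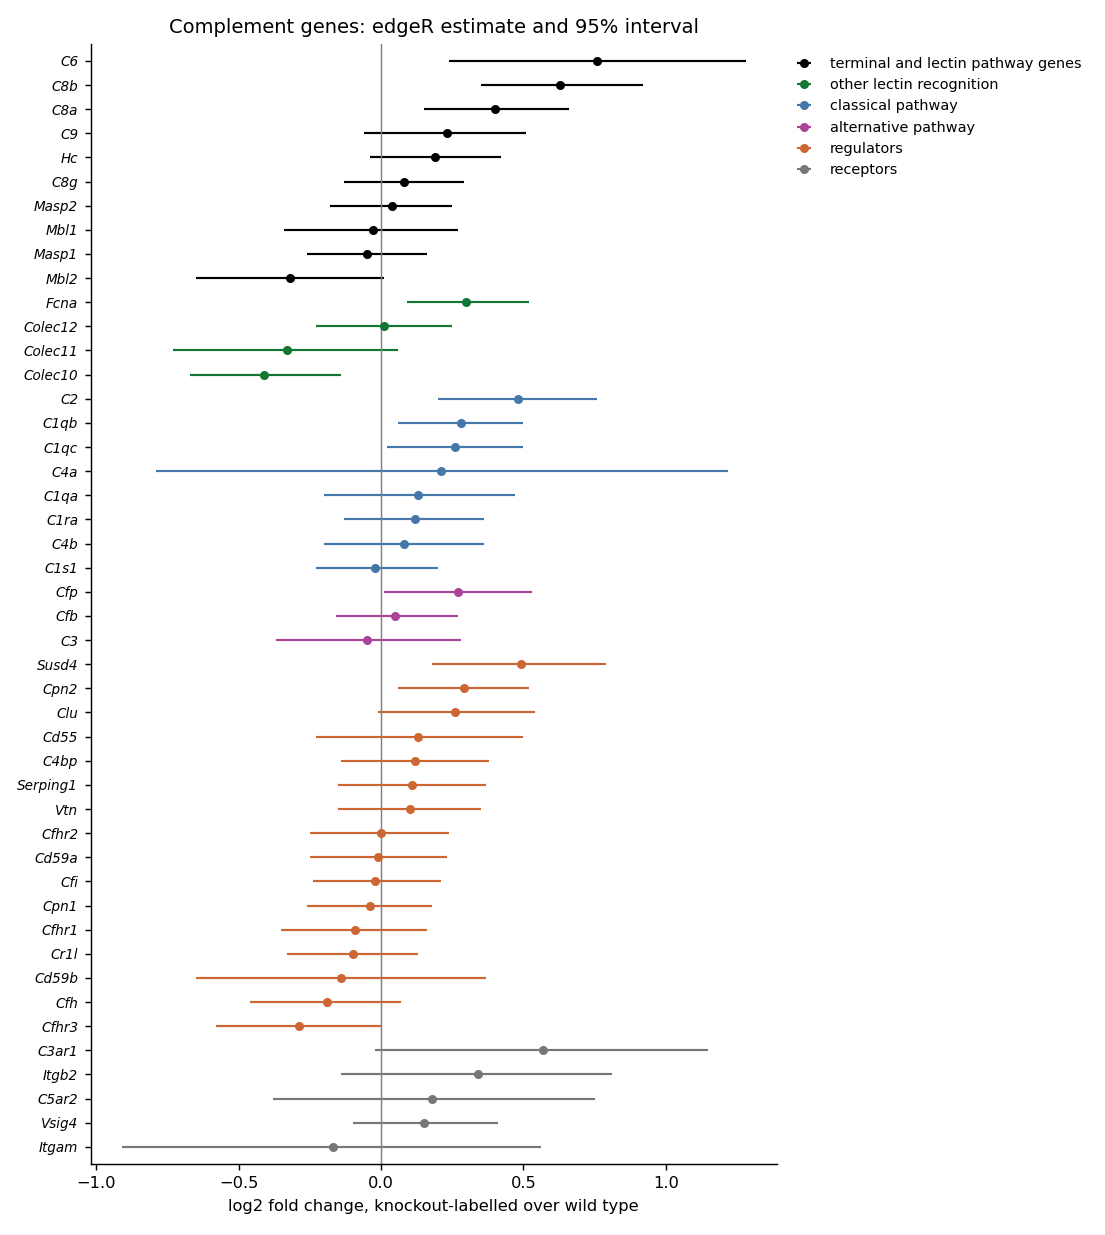
edgeR log2 fold change (knockout-labelled over wild type) with its 95% interval for the 10 genes described here (black) and the 36 other tested complement genes, coloured by role and ordered by value within a role. The intervals of C6, C8b and C8a lie wholly above 0 and the interval of Mbl2 reaches 0.01; these intervals are not adjusted for the number of genes.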

How the data were processed

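RNA from 6 mouse livers, 3 wild type and 3 Cgref1 knockout, was enriched for mRNA and sequenced, per the labels' protocols. The submitters' processing notes list HISAT, Bowtie2, RSEM and DESeq2 without versions. The authors deposited expected counts, FPKM and TPM per gene and library, per the file headers, and for the group comparison a log2 fold change with a p-value and q-value. The authors' mean columns, and their ratio, p-value and score columns for pairs of same-numbered libraries, were deposited too and not used. Chromosome accessions are those of GRCm38.

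Expected counts were rounded, genes filtered with filterByExpr (minimum count 10; 12033 of 15953 kept), scaled by TMM (factors 0.9554 to 1.05) and tested in R 4.3.3 with edgeR 4.0.16 (quasi-likelihood, robust, no block), adjusted by Benjamini-Hochberg over all genes at 0.05. Member counts of 1328 to 12117 give counting errors of 2.74% to 0.908%. Steps were tested on simulated data. Replicate numbers were not treated as pairs, since no label says that a number marks anything shared. In their deviations from group means, same-numbered libraries correlated at 0.283, 0.06 and 0.348. Differently numbered libraries of the 2 groups correlated at -0.3 to -0.006. Every member is named; of the other complement genes those past the threshold and the 2 with the highest mean CPM per role are, plus the gene most like each member, except for C8g, where it is not reported here. Members and lists were chosen with earlier results of these data known. Alternatives were other scalings, filters, DESeq2 1.42.0, limma 3.58.1 (voom, and trend on log2 of TPM or FPKM with a pseudocount of 1 or 0.1), the replicate block, removal of haemoglobin and Mup genes, and left-out libraries.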

Additional observations from a re-analysis of the deposited data

How the results depend on the processing

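For the 10 members, 20 alternatives gave 200 values, of which 183 kept their direction and side of the threshold, 14 turned their sign and 3 passed the threshold. C6, C8b, C8a, C9, Hc and Mbl2 kept their sign in all 20. DESeq2 called 33 genes and 1 member (C8b, 0.63, adjusted p 0.00739). The replicate number as a block gave 34 genes (0.283%) and 2 members, C6 (0.78, edgeR adjusted p 0.0115) and C8b (0.63, 0.0212). Other complement genes had 0 calls there too. Every library correlated best with its own number, but for number 2 at only 0.06. This is at most a hint from the data and not part of the design. The adjusted p over the 20 alternatives ran from 0.0115 to 1 for C6, 0.00739 to 1 for C8b and 0.181 to 1 for C8a. A filter at a mean of 5 CPM gave 0 genes, as did the removal of wild type replicates 1 and 3 together, which leaves 1 wild type library with no spread of its own. Leaving out 1 library gave 1 to 5 genes, 5 without knockout-labelled replicate 1, and 0 members. The members' median of 0.14 was 0.05 with library totals, 0.00 with log2 TPM and 0.05 with log2 FPKM at either pseudocount, where all genes shifted too, and 0.08 to 0.17 without 1 library. Masp2 turned to -0.05 with library totals, -0.16 with TPM, -0.11 with FPKM and -0.03 without wild type replicates 1 and 3; C8g turned to -0.05 with TPM; Mbl1 turned to 0.16 without wild type replicates 1 and 3. Without 1 library, Mbl1 ran from -0.13 to 0.11, Masp1 from -0.10 to 0.00, Masp2 from -0.02 to 0.10 and the Masp1 to Masp2 difference from -0.01 to 0.04, with -0.09 on counts. The count of 3 members at an unadjusted p under 0.05, followed over the alternatives after seeing the data, was 2 to 5, where 2.24% to 9.64% of all genes were: 5 with the block (8.63%), 3 to 5 without 1 library (3.19% to 6.77%) and 2 without wild type replicates 1 and 3 (2.24%). The cause of these changes was not tested. Of 63 alternative values for the ratios, 60 kept their direction. Interval widths rest on 3 libraries a group rather than on depth.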
